A study of Mus musculus with 2 samples.

Results

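The 10 genes described here encode the visual pigments and the light-response machinery of cones: the cone opsins Opn1sw and Opn1mw, the arrestin Arr3, the transducin subunits Gnat2, Gnb3 and Gngt2, the phosphodiesterase subunits Pde6c and Pde6h, and the channel subunits Cnga3 and Cngb3. They were taken as a named list, and all 10 were among the 32285 genes counted. The data are 2 single-cell libraries of mouse retina, 1 control and 1 light damage, each from the pooled retinae of 3 to 5 mice. All mice carried 2 floxed Tgfbr2 alleles, a genotype that is functionally wild type (WT in the labels), on a Balb-C/CD1 background, and were 6 to 9 weeks old. Both groups were dark adapted, with 18 h of full darkness at the end. The light damage mice were then exposed to white light of 5000 lx for 30 min and were left to recover in dim light for 6 h. Because each condition is 1 library, no comparison between light damage and control has a replicate or a p-value, and the intervals, all at 95%, reflect the error of counting alone. The treatment, the pool of mice and the library cannot be told apart.

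In cones, light isomerizes the chromophore of a cone opsin, the opsin activates the alpha subunit of cone transducin, and transducin releases the cone phosphodiesterase from its inhibitory gamma subunit. The phosphodiesterase lowers cyclic GMP, and the cyclic nucleotide-gated channel of the outer segment closes. Rods run the same cascade with a separate set of paralogs, and many mouse cones carry a short-wavelength and a middle-wavelength opsin together, in proportions that follow the dorsoventral axis of the retina. Cones are a small minority of the photoreceptors of the mouse.

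The genes lie on 7 chromosomes of GRCm38, the assembly of mm10: Opn1sw, Gnb3 and Pde6h on chromosome 6, Opn1mw and Arr3 on chromosome X, and Gnat2, Gngt2, Pde6c, Cnga3 and Cngb3 on chromosomes 3, 11, 19, 1 and 4. Opn1sw spans chr6:29376671-29388468 on the minus strand and Opn1mw chrX:74127464-74150760 on the plus strand. In the RefSeq sequences of GRCm38.p6, 6 of the 10 genes had a matching promoter entry. The RefSeq starts can differ from those of the gene spans, and the stretches of Opn1sw and Gnat2 below lie inside the spans of these genes. The 250 bases before the start are shown for both opsins, whose levels are compared cone by cone, and for Gnat2, which is the only one of the 6 that held the letters TAATCC (or GGATTA, the same motif on the other strand), the core recognized by the photoreceptor factors Crx and Otx2. Capitals mark that match.
Opn1sw, chr6:29380514-29380763, minus strand: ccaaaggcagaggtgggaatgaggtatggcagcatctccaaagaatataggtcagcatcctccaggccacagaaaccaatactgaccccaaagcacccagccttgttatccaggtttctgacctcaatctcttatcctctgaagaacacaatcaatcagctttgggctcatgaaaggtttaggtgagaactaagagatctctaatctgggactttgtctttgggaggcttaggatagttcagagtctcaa
Opn1mw, chrX:74127216-74127465, plus strand: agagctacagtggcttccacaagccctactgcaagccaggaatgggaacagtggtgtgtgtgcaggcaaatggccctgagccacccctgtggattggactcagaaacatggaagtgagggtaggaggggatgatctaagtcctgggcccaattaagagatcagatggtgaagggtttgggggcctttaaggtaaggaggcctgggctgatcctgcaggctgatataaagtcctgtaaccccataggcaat
Gnat2, chr3:108092816-108093065, plus strand: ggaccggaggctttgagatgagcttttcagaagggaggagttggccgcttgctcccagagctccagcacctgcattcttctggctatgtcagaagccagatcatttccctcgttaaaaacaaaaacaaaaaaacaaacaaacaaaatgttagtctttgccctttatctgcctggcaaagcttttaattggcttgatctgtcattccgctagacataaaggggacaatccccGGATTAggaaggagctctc
The motif was found, on either strand, in 1 of 6 cone promoters, in 4 of 6 promoters of the rod counterparts, in 4 of 9 promoters of shutoff and recovery genes and in 6.38% of all 27025 promoters of the same length. These are matches of letters, and no binding was measured.

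Droplets were taken as cones when they held at least 1500 UMIs (unique molecular identifiers, 1 per captured RNA molecule) and at least 5 spliced plus ambiguous UMIs over the 10 genes. By this rule, 400 of 3823 control droplets (10.5%, interval 9.51 to 11.5%) and 1329 of 6056 light damage droplets (21.9%, interval 20.9 to 23.0%) were cones. The data went against that label for most of them. In the control library 203 of the 400 droplets, and in the light damage library 1202 of the 1329, reached 5 UMIs only with the help of Gnb3, the beta subunit of cone transducin, and 178 and 1044 of these held no UMI of the other 9 genes. The droplets that depended on Gnb3 had 77957 and 34411 UMIs of 10 rod markers per 1000000 UMIs (CPM) in control and light damage, against 76210 and 37296 CPM in rods. They were not rods alone: the 10 bipolar markers summed to 500 and 368 CPM in them against 88.4 and 83.6 CPM in rods, and to 1726 CPM in the 49 control droplets of at least 30% unspliced UMIs, and 9 and 23 of them met the markers of another class. The 6 cone genes that the rule did not use (Kcne2, Ccdc136, Rxrg, Thrb, Sall3 and Adrb1) summed to 102 and 97.1 CPM in them, against 735 and 895 CPM in the droplets with at least 5 UMIs over the 9 genes without Gnb3 and 62.6 and 83.3 CPM in rods. Bipolar-like droplets held as much of these 6 genes, 970 CPM (786 to 1185) in control and 828 CPM (733 to 933) in light damage, so the list sets cones apart from rods and not from bipolar cells. The bipolar markers summed to 263 and 258 CPM in the cones, against 13167 and 11975 CPM in bipolar-like droplets. Only the latter, 197 control and 127 light damage droplets, are called cones from here on. They were 5.15% of the control droplets (interval 4.47 to 5.90%) and 2.10% of the light damage droplets (interval 1.75 to 2.49%).

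**Figure D1:**
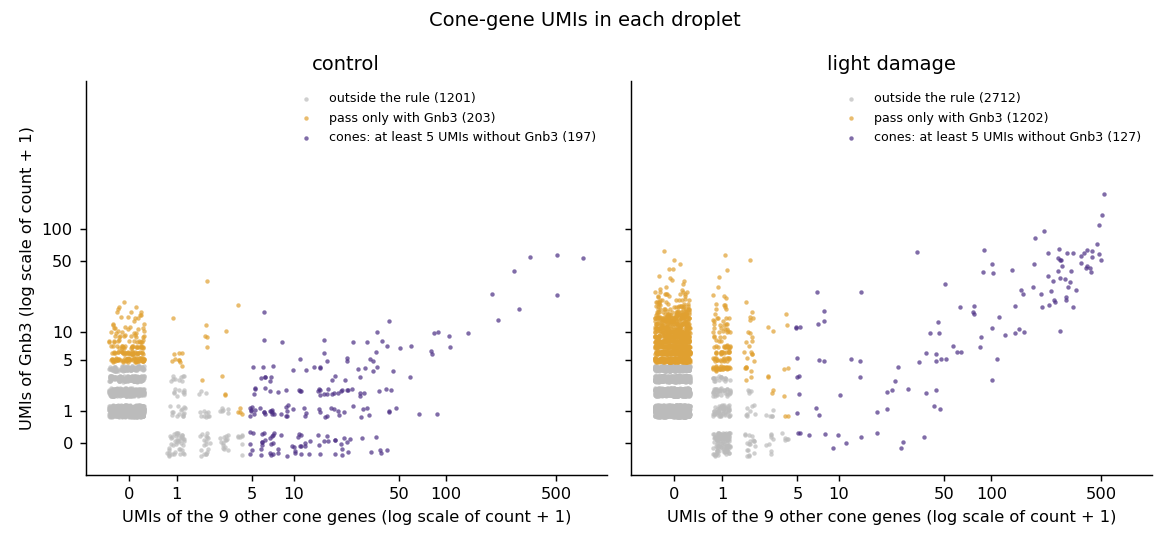
Each point is 1 droplet with at least 1 UMI of the 10 genes, placed by its UMIs of the other 9 genes (horizontal) and of Gnb3 (vertical), both on a log scale of the count plus 1 with a small random shift. The 203 control and 1202 light damage droplets that pass only with Gnb3 sit at or near 0 on the horizontal axis, apart from the 197 and 127 cones.

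Over the 10 genes, 113 control and 367 light damage droplets held 4 UMIs and 75 and 274 held 5. Over the 9 genes without Gnb3, 12 and 12 droplets held 4 UMIs and 16 and 10 held 5. A median of 5 control and 8 light damage members was detected per cone. The cones of the libraries differed in depth, with a median of 2785 UMIs in control and 14454 in light damage, so that 5 UMIs stood for a lower share of the RNA in the light damage cones: 18 of 127 of them, and 5 of 197 control cones, held under 1000 CPM of the 9 genes. They also differed in the share of unspliced UMIs (median 21.4% in control and 33.4% in light damage), which was under 30% in 175 control and 56 light damage cones. Rod transcripts were not absent from cones. The 10 rod markers reached 65553 CPM in control and 30956 CPM in light damage cones, not far below the level of rods, while bipolar-like droplets held 10479 and 1262 CPM and RPE-like droplets (retinal pigment epithelium) 13684 and 4667 CPM. The 7 RPE markers summed to 289 and 875 CPM in cones, and to 4848 CPM in the light damage cones under 30% unspliced, and the 7 microglia markers to 11.2 and 189 CPM. Few cones also met the markers of another class, 3 in control and 4 in light damage, and none shared a barcode between the libraries. Scrublet scores marked 16 control and 13 light damage cones as likely doublets. The part of these differences in the results below was not tested, except where a value without the droplets in question is given.

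Both opsins were detected in control cones, and Opn1sw in nearly all of them. Opn1sw, the short-wavelength cone opsin, had 2435 UMIs in 186 of 197 control cones and 4546 UMIs in 98 of 127 light damage cones. That is 2263 CPM (interval 2174 to 2355) in control and 1559 CPM (1514 to 1605) in light damage, a log2 ratio of −0.54 (−0.61 to −0.47). Opn1mw, the middle-wavelength opsin, had 449 UMIs in 83 control cones and 2042 UMIs in 86 light damage cones. Its level was 417 CPM (380 to 458) in control and 700 CPM (670 to 731) in light damage, a log2 ratio of 0.75 (0.60 to 0.90). The opsins therefore moved in opposite directions in the sum of all cones, beyond counting error. This did not hold within the cones of low or of high unspliced share, given below.

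The transducin subunits differed from each other. Gnat2, the alpha subunit of cone transducin, had 462 CPM (422 to 504) in control and 361 CPM (339 to 383) in light damage, a log2 ratio of −0.36 (−0.51 to −0.20). Gngt2, the gamma subunit, had 762 CPM (711 to 816) and 945 CPM (910 to 981), a log2 ratio of 0.31 (0.20 to 0.42). Gnb3 itself, which was not used to choose these cones, had 631 CPM (585 to 680) and 1088 CPM (1051 to 1127), a log2 ratio of 0.79 (0.67 to 0.91). So the alpha subunit was lower and the beta and gamma subunits higher in the sum of all light damage cones. This pattern did not hold within the cones of low or of high unspliced share, given below.

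Of the phosphodiesterase subunits, Pde6c, the catalytic subunit, had the highest ratio of the 10 genes. Its level was 78.1 CPM (62.3 to 96.7) in control and 173 CPM (158 to 189) in light damage, a log2 ratio of 1.15 (0.81 to 1.5), and it was found in 30 of 197 and 77 of 127 cones. Pde6h, the inhibitory gamma subunit, had 1549 CPM (1475 to 1625) and 1335 CPM (1294 to 1378), a log2 ratio of −0.21 (−0.30 to −0.13). Arr3, the cone arrestin that ends opsin signaling, had 848 CPM (794 to 905) and 1317 CPM (1276 to 1360), a log2 ratio of 0.64 (0.53 to 0.74). Cnga3, the alpha subunit of the cone channel, had 26 and 109 UMIs, or 24.2 CPM (15.8 to 35.4) and 37.4 CPM (30.7 to 45.1). Cngb3, the beta subunit, had 69 and 239 UMIs, or 64.1 CPM (49.9 to 81.2) and 81.9 CPM (71.9 to 93.0). The channel subunits were the least certain, with a log2 ratio of 0.63 (0.00 to 1.31) for Cnga3 and an interval that holds 0 for Cngb3 (0.35, −0.04 to 0.76).

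Of the 10 genes, the interval lay above 0 for 6, below 0 for 3 and across 0 for 1. Here and below, counts of intervals have no share over all genes beside them. They describe the listed genes and do not show that these differ from other genes. Only Pde6c was at least 2-fold higher and none was 2-fold lower, against 14.3% of all 10761 genes tested in cones that were at least 2-fold higher and 7.44% that were 2-fold lower. The median log2 ratio of the 10 genes was 0.48, and over the 2820 genes that reached 50 UMIs in each group of cones it was −0.22. Pde6h lay at this level, so that its ratio of −0.21 became 0.00 when centred on the median gene and 0.03 when scaled to the spliced plus ambiguous UMIs, and that of Arr3 was −0.02 with unspliced UMIs added. Leaving each gene out of its own selection changed little: Opn1sw, for one, was at 2379 CPM in 160 control and 1577 CPM in 121 light damage cones chosen by the other 8 genes. Over the 10 genes together, 7637 and 22158 UMIs gave a log2 ratio of 0.10 (0.06 to 0.14). In the droplets of the rule as first stated, Gnb3 included, the same sum was lower in light damage by a log2 ratio of −0.43 (−0.46 to −0.40), with 3 of 10 genes at least 2-fold lower (8.67% of 13410 genes) and none 2-fold higher (15%), so its direction depended on the droplets that entered through Gnb3. In single cones the spread was wide, with quartiles of Opn1sw at 1019 and 3221 CPM in control and at 48.9 and 3799 CPM in light damage. The most that 1 cone gave of the UMIs of an opsin was 18.9% in control and 6.07% in light damage, both for Opn1mw.

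The direction also depended on the unspliced share of the cones compared. Among cones under 30% unspliced UMIs (175 control, 56 light damage) the intervals of all 10 genes lay above 0 and 5 genes were at least 2-fold higher (15.7% of 8217 genes). Opn1sw was then 2279 CPM (2170 to 2391) in control and 3611 CPM (3448 to 3780) in light damage, a log2 ratio of 0.66 (0.57 to 0.76). Among cones of at least 30% unspliced UMIs (22 control, 71 light damage) 1 interval lay above 0, 4 below and 5 across, and no gene passed 2-fold in either direction (16.3% higher and 10.5% lower of 10093 genes). Opn1sw was there 2231 CPM (2077 to 2394) and 1127 CPM (1085 to 1170), a log2 ratio of −0.99 (−1.10 to −0.87). Opn1mw had 209 of 728907 UMIs in control and 375 of 507042 in light damage among the low-unspliced cones, and was higher in light damage. In the high-unspliced cones it had 240 of 346929 and 1667 of 2409432 UMIs, with an interval that held 0, and 1 control cone gave 85 of the 240. The opsins thus moved in opposite directions within neither set. Gnb3 was the only gene whose interval lay above 0 in both sets, with log2 ratios of 1.30 (1.12 to 1.48) and 0.42 (0.23 to 0.61). The level of the median gene in the same comparisons moved by log2 ratios of 0.11 and −0.29.

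**Figure D2:**
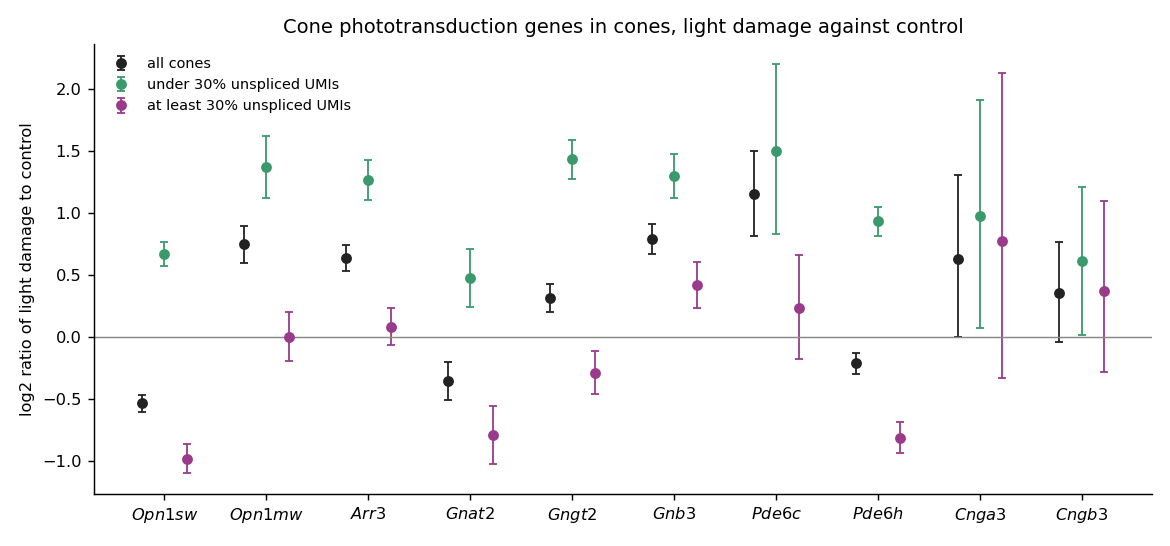
Log2 ratio of light damage to control for each of the 10 genes in all cones (black), in cones under 30% unspliced UMIs (green) and in cones of at least 30% (purple), with 95% counting intervals. All 10 green points lie above 0, whereas the purple points of Opn1sw, Gnat2, Gngt2 and Pde6h lie below it.

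The genes differed strongly in how much of their signal was unspliced. In control cones Arr3 had 2520 unspliced against 912 spliced plus ambiguous UMIs, so that 73.4% of its UMIs were unspliced, and Cngb3 and Pde6c reached 94.5% and 75.8%. Opn1mw was at 36.8%, Gnb3 at 15.5%, and Opn1sw, Gngt2, Pde6h and Gnat2 were between 0% and 5.87%. Light damage cones had 58.1% for Arr3, 90.3% for Cngb3, 68.9% for Pde6c and 0.39% for Opn1sw. Unspliced Arr3 was lower in light damage cones (2342 CPM in control, 1823 CPM in light damage, log2 ratio −0.36, −0.43 to −0.29) while its spliced plus ambiguous level was higher. Unspliced Cngb3 was lower as well (1103 and 759 CPM, log2 ratio −0.54, −0.64 to −0.44), and unspliced Gnb3 was higher (116 and 297 CPM, log2 ratio 1.35, 1.08 to 1.63). Opn1mw had 261 and 784 unspliced UMIs, and Opn1sw only 13 and 18.

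Most cones with Opn1mw also held Opn1sw. In control cones, 82 of 197 (41.6%, interval 34.7 to 48.8%) held both opsins, 104 held Opn1sw only, 1 held Opn1mw only and 10 held neither. In light damage cones, 70 of 127 (55.1%, interval 46.0 to 63.9%) held both, 28 held Opn1sw only, 16 held Opn1mw only and 13 held neither. Of the cones with an Opn1mw UMI, 98.8% (93.5 to 99.97%) in control and 81.4% (71.6 to 89.0%) in light damage also had Opn1sw. In rods, 1.5% of 3272 control and 1.17% of 5464 light damage droplets had a UMI of Opn1sw and 0.24% and 0.42% one of Opn1mw, at median depths of 2934 and 4411 UMIs. The opsins helped to choose the cones and to leave droplets out of the rods, so the gap between them is not a result. In the 154 control and 117 light damage cones chosen without the opsins, 46.8% (38.7 to 55.0%) and 57.3% (47.8 to 66.4%) held both.

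Detection of a gene in a droplet rises with depth, so the shares were also set at 1 depth. After each cone was thinned to 1500 UMIs, which left no cone out, both opsins were found in 25.9% of control and 29.2% of light damage cones, Opn1sw in 87.2% and 59.6%, and Opn1mw in 27.6% and 46.4%. Cones with Opn1mw alone were 1.71% of control and 17.2% of light damage cones on this scale, and cones with Opn1sw alone 61.3% and 30.4%. At equal depth, the libraries were thus close in joint detection and apart in the detection of each opsin alone. With at least 2 UMIs required, 50 control cones (25.4%) and 61 light damage cones (48.0%) held both.

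**Figure D3:**
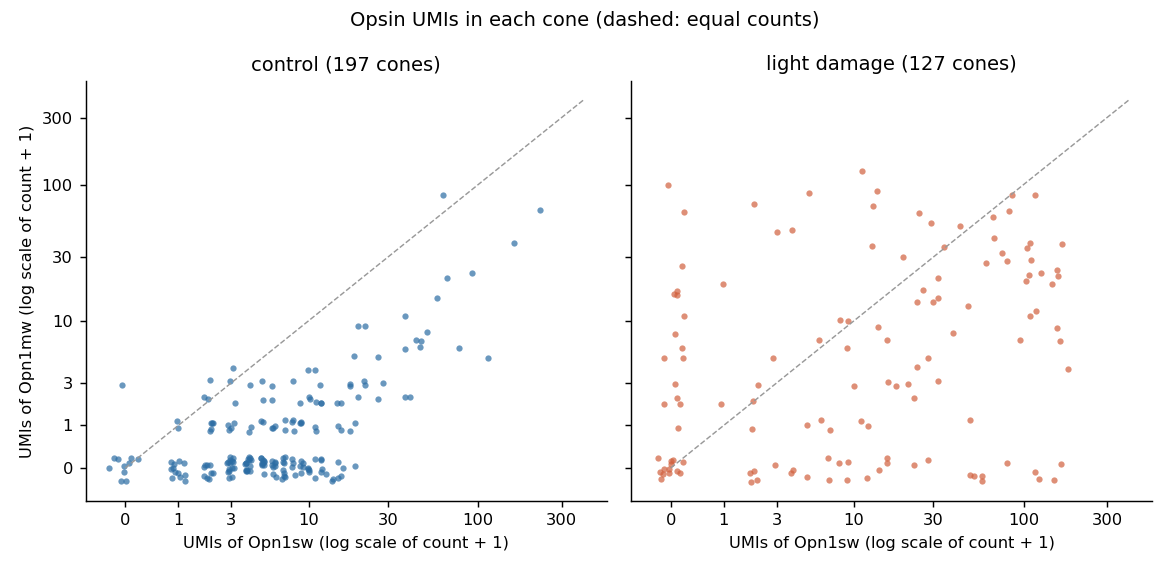
Each point is 1 cone, placed by its UMIs of Opn1sw (horizontal) and Opn1mw (vertical) on a log scale of the count plus 1 with a small random shift, and the dashed line marks equal counts. Of the cones with at least 10 opsin UMIs, 1 of 66 in control and 24 of 84 in light damage lie above the line.

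The balance between the opsins differed as well. Opn1mw made up 15.6% (14.3 to 16.9%) of the opsin UMIs of control cones and 31.0% (29.9 to 32.1%) of those of light damage cones. Among cones with at least 10 opsin UMIs, 1 of 66 in control and 24 of 84 in light damage held more Opn1mw than Opn1sw, and the median Opn1mw share per cone was 10.0% and 24%. No control cone and 13 light damage cones had an Opn1mw share over 90%. In low-unspliced cones the Opn1mw share of the summed opsin UMIs was 11.2% (9.78 to 12.7%) in control and 17.0% (15.5 to 18.6%) in light damage, and in high-unspliced cones 23.7% (21.1 to 26.4%) and 38.0% (36.6 to 39.5%), so it was higher in light damage within both sets. The pools held retinae of 3 to 5 mice, and the study used mice of both sexes. The sexes in each pool and the parts of the retina that each library sampled were not recorded. Within the light damage library, the other members differed in both directions between the 24 cones with more Opn1mw and the 60 with more Opn1sw. Arr3 stood at 1705 CPM (1611 to 1803) in them against 1393 CPM (1338 to 1450) in those with more Opn1sw, and Pde6c at 254 CPM (219 to 294) against 181 CPM (161 to 202). Pde6h was lower, at 1337 CPM (1254 to 1424) against 1632 CPM (1572 to 1693), and so was Gngt2, at 981 CPM (910.0 to 1056) against 1116 CPM (1066 to 1167). The intervals of Gnat2, Gnb3, Cnga3 and Cngb3 overlapped. The 24 cones had 41.1% unspliced UMIs and a median of 22242 UMIs, and the 60 had 35.0% and 17197.5. The part of this in the differences was not tested. Ccdc136, a cone gene outside the rule, was lower in the cones with more Opn1mw, at 175 CPM (146 to 209) against 523 CPM (489.5 to 558.6).

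In rods, 9 of the 10 genes were at a few CPM or less and Gnb3 was not. Rods hold under 5 UMIs of these 9 genes by definition and have no limit on Gnb3, so this contrast is fixed in part. The 9 genes without Gnb3 summed to 245 UMIs in 3272 control rods and 436 UMIs in 5464 light damage rods, and no single one exceeded 6.06 CPM in control (Opn1sw) or 5.41 CPM in light damage (Arr3). Cngb3 had 0 spliced plus ambiguous UMIs in rods of either library, which allows a level of up to 0.227 CPM in control and 0.0872 CPM in light damage (3 UMIs), and Pde6c had 0 and 13. The level of the 9 genes in rods was compared with that expected from free RNA, whose makeup was taken from barcodes under 50 UMIs and whose amount, scaled on the RPE markers, was 1.91% of the RNA of control rods and 0.744% of light damage rods. Opn1sw was then 3.37 times the expected level in control and 2.46 times in light damage rods, and Arr3 4.02 and 5.36 times. Opn1mw was at 1.31 and 1.08 times and Gnat2 at 1.09 and 1.94 times, levels that rest on 9 to 28 UMIs a library. Pde6c in light damage rods and Cnga3 in both rest on 13 UMIs or fewer.

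Gnb3 in rods was at 250 CPM (241 to 258) in control and 447 CPM (440 to 454) in light damage, a log2 ratio of 0.84 (0.79 to 0.90). It was detected in 1249 of 3272 control and 3667 of 5464 light damage rods (38.2% and 67.1%), or in 24.6% and 40.6% at a thinned depth of 1500 UMIs. These levels were 36.8 and 73.2 times what the free RNA estimate gave. In rods outside the original rule, from which droplets with 5 or more Gnb3 UMIs are left out by construction, Gnb3 was at 172 CPM (165 to 180) and 236 CPM (230 to 243), a log2 ratio of 0.46 (0.38 to 0.53). Gnb3 was higher in light damage rods under 30% unspliced UMIs (279 and 483 CPM, log2 ratio 0.79, 0.72 to 0.87) and in those of at least 30% (183 and 436 CPM, log2 ratio 1.25, 1.14 to 1.36). Unspliced Gnb3 was at 30.6 CPM in control and 195 CPM in light damage rods, a log2 ratio of 2.67 (2.53 to 2.82), and at 6.43 and 22 CPM within low-unspliced rods.

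As shares of all UMIs, unspliced ones included, the order of the Gnb3 levels differed between the libraries at its top. Bipolar-like droplets, in which Gnb3 serves the metabotropic glutamate cascade of ON bipolar cells, had 950 CPM (768 to 1162) in control and 926 CPM (825 to 1036) in light damage, from 22 and 15 droplets. Cones came below them in control, at 631 CPM, and above them in light damage, at 1088 CPM, and in neither library did the intervals overlap. Rods came below both. Unspliced UMIs were 46.5% of the UMIs of bipolar-like droplets in control and 51.9% in light damage, against 24.8% and 36.3% in cones. Scaling to spliced plus ambiguous UMIs would therefore raise the bipolar-like levels more than those of cones. Whether cones stay above bipolar-like droplets in light damage on that scale was not tested. RPE-like droplets had 56.1 CPM (40.9 to 75.1) and 49.7 CPM (41.6 to 59.1). Müller-like droplets, with 6 UMIs in control and 1 in light damage, and control microglia-like droplets, with 2, held too few to be placed against them. Light damage microglia-like droplets were lower, at 19.6 CPM (8.46 to 38.6). Other members had low signals outside photoreceptors. Gngt2 was at 121 CPM (32.9 to 310) in 11 control and 63.7 CPM (41.6 to 93.3) in 31 light damage microglia-like droplets (4 and 26 UMIs), and Gnat2 at 15 CPM (7.73 to 26.1) and 13.0 CPM (9.01 to 18.2) in RPE-like droplets. RPE-like droplets also held 3 and 10 UMIs of Cngb3 (3.74 and 3.83 CPM), which had none in rods, and 5 and 6 UMIs of Pde6h.

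**Figure D4:**
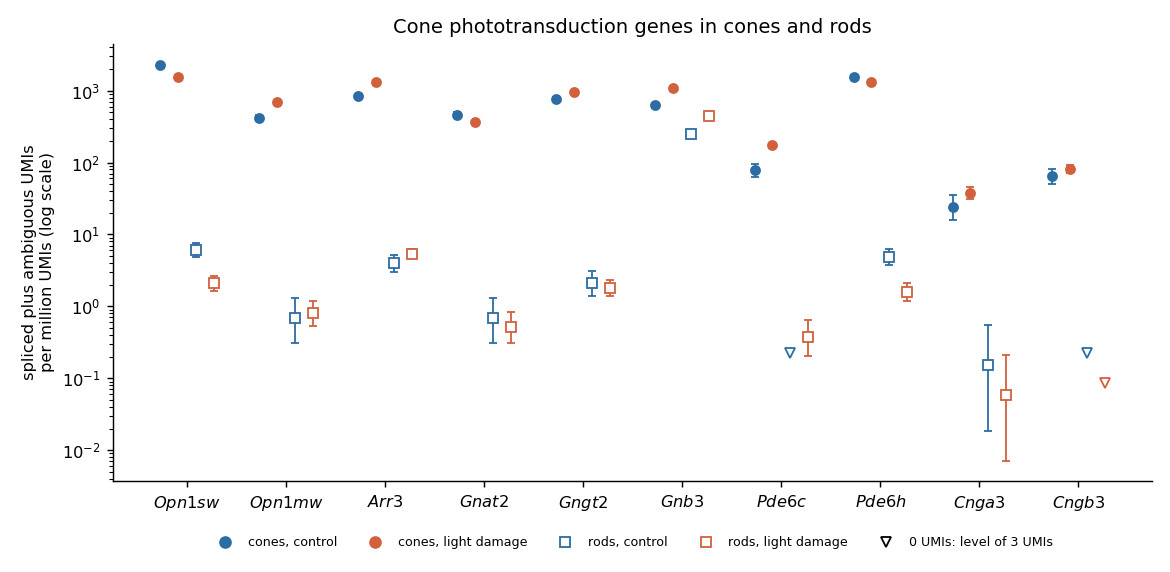
Level of each of the 10 genes in cones (filled) and rods (open) of the control (blue) and light damage (orange) library, in spliced plus ambiguous UMIs per 1000000 UMIs on a log axis, with 95% counting intervals and triangles at the level of 3 UMIs where a gene had none. Gnb3 is the only gene whose rod levels, 250 and 447 CPM, lie within an order of magnitude of its cone levels.

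Between rods of the libraries, the low counts of the other members allowed few statements. Opn1sw had 80 UMIs in control rods and 72 in light damage rods, a log2 ratio of −1.53 (−2.01 to −1.06), and Pde6h 64 and 55 UMIs, −1.60 (−2.15 to −1.06). Among rods of at least 3000 UMIs these ratios were −0.27 (−1.01 to 0.53) and 0.55 (−0.51 to 1.77), so the lower levels rested on the shallower rods. For Arr3 (53 and 186 UMIs) and Gngt2 (28 and 62 UMIs) the intervals held 0. Of the 8 members with at least 10 UMIs in rods, 1 was at least 2-fold higher (17.9% of 14916 genes) and 2 were 2-fold lower (8.4%). Within rods outside the original rule, 0 of 7 members were 2-fold higher (17.4%) and 2 lower (7.93%), within low-unspliced rods 0 of 7 higher (8.15%) and 2 lower (3.94%), and within high-unspliced rods 2 of 7 higher (15.1%) and 1 lower (5.96%). The gene counted as higher over all rods was Pde6c, with 13 UMIs against 0, which is a level at least 1.66-fold higher than 3 UMIs would give in control rods.

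The rest of the cascade was compared between cones and rods of the same library. Because the 9 genes chose the cones, their own ratios are not a result: all 10 genes were at least 2-fold higher in cones in both libraries, where 11.7% of 11900 and 13.2% of 14662 genes were, and the least of them was Gnb3 with log2 ratios of 1.34 (1.22 to 1.46) in control and 1.28 (1.23 to 1.34) in light damage. Pde6c in control and Cngb3 in both libraries had no UMI in rods and were at least 343-fold, 282-fold and 940-fold higher against 3 UMIs. The 6 cone genes outside the rule were also higher in cones than in rods, although Ccdc136, Adrb1 and Kcne2 were at 566, 253 and 152 CPM in control and 495, 245 and 88.6 CPM in light damage bipolar-like droplets. Kcne2 had 143 UMIs in control cones against 10 in rods (log2 ratio 7.45, 6.53 to 8.55) and 430 against 6 in light damage (9.72, 8.59 to 11.18). Ccdc136 had log2 ratios of 7.52 (6.93 to 8.16) and 8.11 (7.68 to 8.57). Thrb, the thyroid hormone receptor that directs Opn1mw expression in development, had the lowest ratio, with 137 CPM in cones and 59.1 CPM in rods of the control library (1.21, 0.94 to 1.46) and 235 and 81.1 CPM in light damage (1.53, 1.41 to 1.65). Of these 6 genes, 5 of the 5 with at least 10 UMIs in control and 6 of 6 in light damage were at least 2-fold higher in cones.

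The 10 rod counterparts, among them Sag, Gnat1, Gngt1, Gnb1, Pde6a, Pde6b, Pde6g, Cnga1 and Cngb1, were lower by little in the droplets called cones. All 10 intervals lay below 0 in both libraries but none of the genes was 2-fold lower (8.2% and 6.94% of all genes), with median log2 ratios of −0.24 in control and −0.41 in light damage. Gnat1, the alpha subunit of rod transducin, had 7554 CPM in control cones and 8060 CPM in control rods. The direction turned with the unspliced share. Against rods of at least 30% unspliced UMIs, the summed rod counterparts were higher in cones of at least 30%, with log2 ratios of 0.75 in control and 0.35 in light damage. Nrl and Nr2e3, the factors that set rod identity, had log2 ratios of −0.25 (−0.32 to −0.19) and −0.28 (−0.36 to −0.20) in control and −0.66 (−0.73 to −0.60) and −0.75 (−0.85 to −0.65) in light damage. Against rods of at least 30% unspliced UMIs, Nrl and Nr2e3 in control cones of the same share were at 0.73 and 0.13. Crx and Otx2 lay between −0.12 and 0.15 in both libraries. Free RNA, estimated as for rods, was 1.52% of the RNA of control cones and 0.381% of light damage cones. Whether the rod transcripts in these droplets, Nrl and Nr2e3 among them, came from the cones themselves was not tested. The same limit holds for the shutoff and recovery genes below.

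Among 12 shutoff and recovery genes, Slc24a2, the exchanger of cones that extrudes calcium, was the only one at least 2-fold higher in cones, in both libraries. Over all genes, 11.7% of 11900 in control and 13.2% of 14662 in light damage were, so 1 of 12 is not a result about the list. Slc24a2 had 48 UMIs in cones against 3 in rods of the control library (log2 ratio 7.62, 5.98 to 9.94) and 203 against 10 in light damage (7.90, 7.0 to 8.99). The other 11, Grk1, Rgs9, Rcvrn and the guanylate cyclases with their activators among them, had log2 ratios between −0.63 and 0.19. Grk1, the kinase that phosphorylates light-activated opsin, had 0.15 (0.01 to 0.28) in control and −0.06 (−0.14 to 0.02) in light damage.

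**Figure D5:**
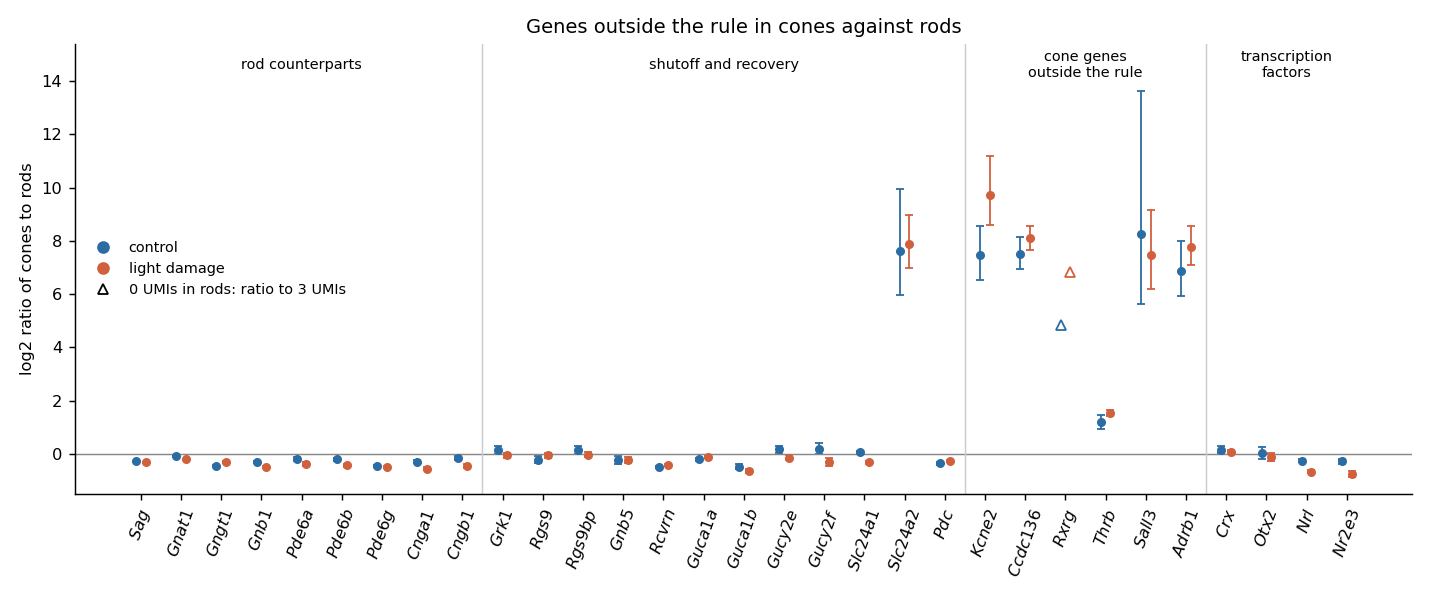
Log2 ratio of cones to rods of the same library for 31 genes of phototransduction and photoreceptor identity that the rule did not use, control in blue and light damage in orange, with 95% counting intervals and open triangles for the ratio to 3 UMIs where rods had none. Slc24a2 and the cone genes outside the rule lie above 0, Thrb nearest to it, and the rod counterparts just below it.

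The rod counterparts were also compared between the libraries. In cones, 8 of the 10 rod counterparts were at least 2-fold lower in light damage (7.44% of all genes) with a median log2 ratio of −1.12, and in rods 5 of 10 (8.4%) with a median of −1.0. Their summed log2 ratio in cones was −1.13 (−1.15 to −1.12), and −0.71 and −0.70 within the cones of low and of high unspliced share. Within these sets of cones only 1 of 10 was 2-fold lower in each (6.07% and 10.5% of all genes), with medians of −0.73 and −0.86. Within rods of low and of high unspliced share it was 0 of 10 in both (3.94% and 5.96%), with medians of −0.17 and −0.34. Of the 6 cone genes outside the rule, 2 intervals lay above 0 in cones (Thrb 0.78, 0.52 to 1.05, and Adrb1 0.38, 0.05 to 0.72) and 4 held 0.

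The genes whose pattern was most like that of the 10 between cones and rods were ranked by the lower end of the interval of the log2 ratio of cones to rods, taking the smaller of the libraries, among 7010 genes with at least 50 UMIs in cones over both. In all, 8 members took ranks 1 to 8, Cnga3 rank 27 and Gnb3 rank 159, which the choice of cones fixes in part. The next 10 genes, ranks 9 to 18, were Ppm1j, Ccdc136, Fam19a3, Clca1, Kcne2, Mapk4, Fzd10, Slc24a2, Adrb1 and Nptx1. Ppm1j had 73 UMIs in control cones and 1 in control rods, and 84 and 2 in light damage. Fam19a3 had 116 and 5 UMIs in control and 241 and 5 in light damage, and Fzd10 had 35 and 0 in control and 136 and 14 in light damage. These 10 genes each had at most 45 UMIs in the rods of a library, against 30 to 1052 in cones.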

How the data were processed

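The authors aligned 10x reads of each library with salmon and alevin to an mm10 index of spliced transcripts and introns (Cell Ranger 7.0.1, Salmon 1.10.1 and alevin 0.8.1 in the submitters' processing notes), and deposited raw UMI counts per gene and barcode as spliced, unspliced and ambiguous counts for all barcodes. Their later steps for empty droplets, doublets, free RNA and clustering are not in these counts. The control library held 30605284 UMIs in 542576 barcodes and the light damage library 54413601 UMIs in 944146 barcodes, with 18.7% and 32.7% unspliced UMIs. Droplets of at least 1500 UMIs were kept (3823 and 6056), and 7 of their barcodes occurred in both libraries.

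Levels are spliced plus ambiguous UMIs per 1000000 UMIs of all 3 kinds, summed over droplets, with exact Poisson intervals. Shares have Clopper-Pearson intervals and log2 ratios exact conditional binomial ones, all at 95%. A gene was counted as 2-fold different by its ratio with 0.5 UMI added to each sum, among genes of at least 10 UMIs, and a level of 0 was set at 3 UMIs. Rods were droplets with at least 3 rod markers, under 10% mitochondrial UMIs, no other class and too few cone UMIs. Droplets joined another class, named like its markers, with 3 of its markers and 0.5% of their UMIs. Doublets were marked from Scrublet scores at 0.8% per 1000 droplets, since the automatic threshold called 3 and 2 droplets, and were removed only as an alternative. Genes named are the 10 cone genes, their rod counterparts (1 of them is not reported here), shutoff and recovery genes, cone genes outside the rule, 4 transcription factors and the 10 other genes with the highest lower bound of the ratio of cones to rods. The members and lists were chosen with earlier results of these data known. Intervals came from scipy 1.17.1 and doublet scores from scanpy 1.11.5, run with Python 3.11.15, and the code was tested on simulated data.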

Additional observations from a re-analysis of the deposited data

How the results depend on the processing

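Each condition is 1 library, so depth, unspliced share, pool and treatment cannot be told apart. The ratio of an opsin or of the 10 genes together between the libraries turned with the unspliced share of the cones, and the counts by the stated rule rested on Gnb3. Low counts limit Cnga3, Cngb3 and every member but Gnb3 in rods. No paired analysis was possible because each group holds 1 library and no test was run. Settings for cones chosen without Gnb3, for all rods and for thinned droplets were chosen after seeing the data. Where a value below differs, the cause was not tested.

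The number of control droplets of the rule was 400 and became 263 from 3000 UMIs, 182 from 10 cone UMIs and 197 with Gnb3 left out of the rule. The number of light damage droplets of the rule was 1329 and became 486 from 10 cone UMIs and 127 with Gnb3 left out of the rule. The number of control cones was 197 and became 90 from 3000 UMIs and 130 from 10 UMIs of the 9 genes. In droplets of the rule with Gnb3, light damage against control, the log2 ratio of the sum of the cone genes was −0.43 and became −0.27 from 3000 UMIs, 0.10 with Gnb3 left out of the rule, 0.38 in low-unspliced droplets of the rule, −0.996 in high-unspliced droplets of the rule, −0.48 with unspliced UMIs added, −0.0084 scaled to spliced plus ambiguous UMIs and −0.24 centred on the median gene. In droplets of the rule with Gnb3, light damage against control, the log2 ratio of Arr3 was −0.20 and became 0.64 with Gnb3 left out of the rule, 0.55 in low-unspliced droplets of the rule and 0.22 scaled to spliced plus ambiguous UMIs. In droplets of the rule with Gnb3, light damage against control, the log2 ratio of Gngt2 was −0.53 and became 0.31 with Gnb3 left out of the rule and 0.73 in low-unspliced droplets of the rule. In droplets of the rule with Gnb3, light damage against control, the log2 ratio of Cngb3 was −0.49 and became 0.35 with Gnb3 left out of the rule. In droplets of the rule with Gnb3, light damage against control, the log2 ratio of Pde6h was −1.06 and became 0.22 in low-unspliced droplets of the rule. In cones, light damage against control, the log2 ratio of the sum of the cone genes was 0.10 and became 0.047 from 10 UMIs of the 9 genes, 0.15 without marked doublets, 0.28 from 1000 CPM of the 9 genes, 0.98 in low-unspliced cones, −0.37 in high-unspliced cones, 0.0012 with unspliced UMIs added, 0.34 scaled to spliced plus ambiguous UMIs and 0.32 centred on the median gene. In cones, light damage against control, the log2 ratio of Opn1sw was −0.54 and became 0.66 in low-unspliced cones. In cones, light damage against control, the log2 ratio of Gnat2 was −0.36 and became 0.48 in low-unspliced cones. In cones, light damage against control, the log2 ratio of Pde6h was −0.21 and became 0.93 in low-unspliced cones, 0.027 scaled to spliced plus ambiguous UMIs and 0.0044 centred on the median gene. In cones, light damage against control, the log2 ratio of Gngt2 was 0.31 and became −0.29 in high-unspliced cones. In cones, light damage against control, the log2 ratio of Arr3 was 0.64 and became −0.023 with unspliced UMIs added. The percentage of control droplets of the rule with both opsins was 21 and became 41.2 from 10 cone UMIs, 41.6 with Gnb3 left out of the rule, 12.8 from 2 UMIs of each opsin and 12.8 thinned to 1500 UMIs. The percentage of light damage droplets of the rule with both opsins was 5.27 and became 14.2 from 10 cone UMIs, 55.1 with Gnb3 left out of the rule, 8.44 in low-unspliced droplets of the rule and 2.79 thinned to 1500 UMIs. The percentage of control cones with both opsins was 41.6 and became 56.7 from 3000 UMIs, 54.6 from 10 UMIs of the 9 genes, 72.7 in high-unspliced cones, 25.4 from 2 UMIs of each opsin and 25.9 thinned to 1500 UMIs. The percentage of light damage cones with both opsins was 55.1 and became 64.2 from 10 UMIs of the 9 genes and 29.2 thinned to 1500 UMIs. In rods outside the rule, against barcodes under 50 UMIs, the log2 ratio of Gnb3 in control was −1.04 and became −0.90 with unspliced UMIs added, −1.20 from 3000 UMIs, −0.75 with free RNA from barcodes of 50 to 200 UMIs and −0.51 with all rods. In rods outside the rule, against barcodes under 50 UMIs, the log2 ratio of the sum of the 9 without Gnb3 in control was −4.52 and became −3.80 with unspliced UMIs added, −5.82 from 3000 UMIs and −2.17 with free RNA from barcodes of 50 to 200 UMIs. In rods outside the rule, against barcodes under 50 UMIs, the log2 ratio of Gnb3 in light damage was −1.79 and became −1.26 with unspliced UMIs added, −1.92 from 3000 UMIs, −1.499 with free RNA from barcodes of 50 to 200 UMIs and −0.88 with all rods. In rods outside the rule, against barcodes under 50 UMIs, the log2 ratio of the sum of the 9 without Gnb3 in light damage was −6.09 and became −4.93 with unspliced UMIs added, −6.34 from 3000 UMIs, −4.61 with free RNA from barcodes of 50 to 200 UMIs and −5.82 with all rods. For rods outside the rule, light damage against control, the log2 ratio of the sum of the 9 without Gnb3 was −0.74 and became 0.31 from 3000 UMIs, −0.39 with unspliced UMIs added, −0.38 scaled to spliced plus ambiguous UMIs and −0.28 in high-unspliced rods. For rods outside the rule, light damage against control, the log2 ratio of Pde6h was −1.61 and became 0.21 from 3000 UMIs. For rods outside the rule, light damage against control, the log2 ratio of Gnb3 was 0.46 and became 0.87 with unspliced UMIs added, 0.82 scaled to spliced plus ambiguous UMIs, 0.69 in low-unspliced rods, 0.79 in high-unspliced rods and 0.84 with Gnb3 left out of the rule. Over all rods, light damage against control, the log2 ratio of the sum of the 9 without Gnb3 was −0.55 and became 0.46 from 3000 UMIs, −0.29 with unspliced UMIs added, −0.15 scaled to spliced plus ambiguous UMIs and −0.036 in high-unspliced rods. Over all rods, light damage against control, the log2 ratio of Pde6h was −1.60 and became 0.55 from 3000 UMIs. Over all rods, light damage against control, the log2 ratio of Gnb3 was 0.84 and became 1.20 with unspliced UMIs added, 1.24 scaled to spliced plus ambiguous UMIs and 1.25 in high-unspliced rods. Between droplets of the rule and rods, the log2 ratio of the sum of the rod counterparts in control was −0.06 and became 0.046 from 3000 UMIs, −0.086 without marked doublets, −0.067 with unspliced UMIs added, −0.13 centred on the median gene, −0.46 against low-unspliced rods, 1.62 against high-unspliced rods, −0.051 with free RNA subtracted and −0.24 with Gnb3 left out of the rule. Between droplets of the rule and rods, the log2 ratio of the sum of the cone genes outside the rule in control was 2.33 and became 0.66 with unspliced UMIs added and 3.55 with Gnb3 left out of the rule. Between droplets of the rule and rods, the log2 ratio of the sum of the rod counterparts in light damage was −0.21 and became −0.035 from 3000 UMIs, −0.25 without marked doublets, −0.18 with unspliced UMIs added, −0.15 scaled to spliced plus ambiguous UMIs, −0.20 centred on the median gene, −1.46 against low-unspliced rods, 0.90 against high-unspliced rods and −0.29 with Gnb3 left out of the rule. Between droplets of the rule and rods, the log2 ratio of the sum of the cone genes outside the rule in light damage was 1.48 and became 0.20 with unspliced UMIs added and 3.43 with Gnb3 left out of the rule. For the sum of the rod counterparts in control, the log2 ratio of cones to rods was −0.24 and became −0.22 from 3000 UMIs, −0.36 without marked doublets, −0.20 scaled to spliced plus ambiguous UMIs, −0.29 centred on the median gene, −0.62 against low-unspliced rods, 1.37 against high-unspliced rods, −0.20 from 1000 CPM of the 9 genes, −0.40 with both low-unspliced and 0.75 with both high-unspliced. For the sum of the cone genes outside the rule in control, the log2 ratio of cones to rods was 3.55 and became 1.41 with unspliced UMIs added, 3.38 with both low-unspliced and 3.87 with both high-unspliced. For Gnat1 in control, the log2 ratio of cones to rods was −0.094 and became 1.73 against high-unspliced rods and 1.08 with both high-unspliced. For Nrl in control, the log2 ratio of cones to rods was −0.25 and became 1.41 against high-unspliced rods and 0.73 with both high-unspliced. For Nr2e3 in control, the log2 ratio of cones to rods was −0.28 and became 0.57 against high-unspliced rods and 0.13 with both high-unspliced. For the sum of the rod counterparts in light damage, the log2 ratio of cones to rods was −0.29 and became −0.16 from 3000 UMIs, −0.27 without marked doublets, −0.33 with unspliced UMIs added, −0.41 scaled to spliced plus ambiguous UMIs, −0.41 centred on the median gene, −1.54 against low-unspliced rods, 0.53 against high-unspliced rods, −0.33 from 1000 CPM of the 9 genes, −0.90 with both low-unspliced and 0.35 with both high-unspliced. For the sum of the cone genes outside the rule in light damage, the log2 ratio of cones to rods was 3.43 and became 3.59 without marked doublets, 0.86 with unspliced UMIs added, 3.30 scaled to spliced plus ambiguous UMIs, 3.30 centred on the median gene, 3.67 from 1000 CPM of the 9 genes, 3.90 with both low-unspliced and 3.30 with both high-unspliced. For Gnat1 in light damage, the log2 ratio of cones to rods was −0.20 and became 0.83 against high-unspliced rods and 0.65 with both high-unspliced.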
